A study of Mus musculus with 6 samples.

Results

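The expression of 10 genes for proteins of the acrosome and of the sperm-egg fusion machinery was examined in mouse testis. They were Izumo1, Izumo4, Spaca1, Spaca3, Spaca7, Spesp1, Zpbp, Zpbp2, Acrbp and Tmem95, taken as every probe on the array that carried 1 of these gene names. All 10 genes were found, on 14 probes of the 41174 non-control probes of the array. Total RNA from whole testis was hybridised to 6 one-colour (Cy3) Agilent whole mouse genome arrays, 3 from Prss55-/- mice (labelled Prss55KO) and 3 from wt mice (labelled WT). All animals were males of 6 to 8 weeks on a mixed 129Sv/C57BL/6 background. The Prss55-/- animals carried Prss55, the gene for a serine protease of the testis, in a form disrupted by homologous recombination. The labels give each array as a separate mouse replicate.

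The acrosome is a secretory vesicle that is built from the Golgi in round spermatids and caps the sperm nucleus. Its exocytosis releases enzymes and exposes membrane proteins that meet the zona pellucida, the coat of the egg. Sperm that have passed this coat fuse with the egg membrane through a set of sperm membrane proteins, of which IZUMO1, the partner of the egg receptor JUNO, is the best known. These genes are transcribed mainly in spermatids, so that whole testis RNA from adults contains their transcripts.

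The array measures each transcript through a designed DNA probe of 60 bases, and the probes of 4 members are shown here because the differences below rest on such stretches. Coordinates are those of the array files, which name the mm9 build. Every sequence below can be read in at least 1 forward frame without a stop codon, and no annotation of that build was used to place it in an exon. The Izumo1 probe lies on the plus strand at chr7:52879588-52880333 and its 60 bases are spread over 746 genomic bases. The Spaca1 probe lies on the minus strand at chr4:34115526-34116095 and is spread over 570 genomic bases. The Spaca3 probe lies on the plus strand at chr11:80678032-80678091, without a gap. The Zpbp probe lies on the minus strand at chr11:11315309-11318192 and is spread over 2884 genomic bases.
Izumo1: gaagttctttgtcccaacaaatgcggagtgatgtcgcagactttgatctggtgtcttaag
Spaca1: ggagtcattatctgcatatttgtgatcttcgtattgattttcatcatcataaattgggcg
Spaca3: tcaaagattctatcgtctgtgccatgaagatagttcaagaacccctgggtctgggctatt
Zpbp: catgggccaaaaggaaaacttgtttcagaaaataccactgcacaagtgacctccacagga

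The targeted gene was examined first. The log2 normalised signal of Prss55 was 15.08, 14.95 and 14.93 on the Prss55-/- arrays and 15.87, 15.77 and 16.01 on the wt arrays. All 3 Prss55-/- arrays lay below all wt arrays, with a difference of -0.90 (limma adjusted p = 0.0100). The difference stayed between -0.96 and -0.84 under the alternatives tried, and the call was lost with the methods' t-test, with the replicate block and without Prss55-/- 2, Prss55-/- 3 or wt 1. Whether the Prss55 probe lies inside the disrupted region was not tested. The study itself reported that Prss55 RNA was absent by RT-PCR, and the protein by Western blot and immunofluorescence. Between 69.5% and 72.9% of the spots of an array were well above background, and no spot was saturated. No slide held both genotypes: Prss55-/- testes were read on 1 slide and wt testes on 2 further ones, and slide and genotype therefore cannot be told apart. With slide as a random block (consensus correlation 0.036), 0 members were called, as without it. Since each slide held only 1 genotype, this block cannot separate slide from genotype.

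All 10 members were well above background on all 6 arrays, so that none was left out of the test. The signal of most member probes was among the brightest on the array. Ranked among the 41174 probes of the same array, the Zpbp2 probe had a median percentile of 99.6 over the 6 arrays, and Spaca7 99.0. Acrbp followed at 98.0, Spaca3 at 97.8, Spaca1 at 96.7 and Izumo4 at 95.6. Spesp1 stood at 93.0 and Zpbp at 92.9, with overlapping values across arrays. Izumo1 lay at 85.6 and Tmem95 at 49.1, near the middle of the array. Brightness depends on the probe as well as on the transcript, so these ranks give no order of transcript levels between genes. The pairs of probes for a gene show this directly. The 2 Spaca1 probes differed in brightness by a factor of 1.01, whereas those of Acrbp differed by 7.09, those of Izumo4 by 37.0 and those of Zpbp2 by 982. Where a member had 2 probes, the brighter probe stands for the gene and the dimmer probe is given beside it. Each gene of the other lists and of the markers below is counted by its brightest tested probe alone.

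**Figure D1:**
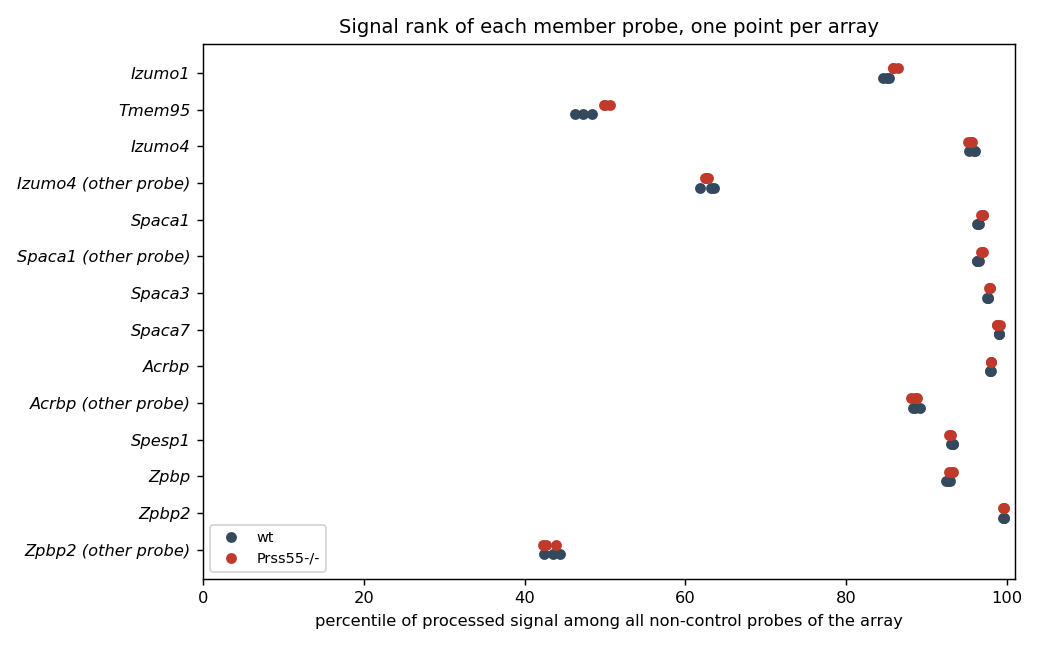
Percentile of the processed signal of each member probe (x axis, percent) among all non-control probes of its array, with 1 point per array for wt (dark) and Prss55-/- (red). The main probes of 8 genes lie above percentile 92, Izumo1 near 85.6 and Tmem95 near 49.1, and the dimmer probes of Izumo4 and Zpbp2 lie far below the brighter ones.

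The comparison of Prss55-/- with wt testis asks whether loss of the protease changed the transcripts of these genes. Over the array, 346 of the 28606 tested probes passed an adjusted p of 0.05 in limma, which is 1.21% of them. Of the 10 members 0 passed, and 0 passed with the methods' t-test after the same adjustment. At an unadjusted p under 0.05, 4 members were higher in Prss55-/- testis and 0 lower, and the methods' t-test gave 5. Of all tested probes 19.1% had such a p in limma, 9.82% higher and 9.29% lower. The count of 4 higher members was 2 without Prss55-/- 2, Prss55-/- 3 or wt 1, and 2 with the replicate number as a block. It was 3 with normexp background correction and 3 without wt 2. Without Prss55-/- 1 it stayed at 4, and 1 member, Spaca7, was then lower at an unadjusted p under 0.05. The values of the genotypes did not overlap for 6 members, 5 with all Prss55-/- arrays above all wt arrays and 1 below. This was the case for 26.3% of all tested probes, 13.4% above and 12.9% below. With 3 arrays against 3, an exact permutation test of 1 gene cannot give a two-sided p below 0.10, and it gave 0.10 for each of these 6 genes. The median difference of the members was 0.077 on the log2 scale, against 0.0019 for all tested probes and -1.61e-05 for the 5957 tested probes at least as bright as that of Izumo1. Of the 10 members 7 had a positive difference, as had 50.6% of all tested probes. Over all 14 member probes, the median was 0.037 and 8 were positive. The 95% intervals of the 10 genes reached from 0.808-fold to 1.43-fold, so that each excluded a 2-fold change in either direction. In RNA from whole testis, a change in the number of spermatids and a change of transcript per cell cannot be told apart.

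**Figure D2:**
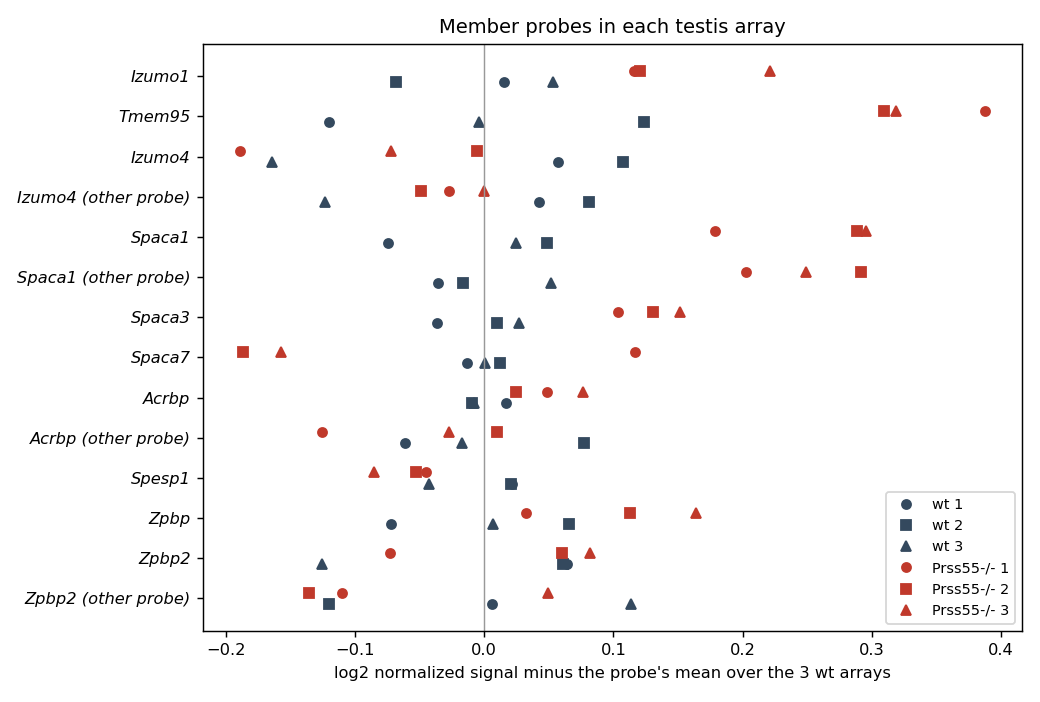
Log2 normalised signal of each member probe on each array (points), minus the mean of that probe over the 3 wt arrays (x axis, log2). All Prss55-/- points (red) lie to the right of all wt points (dark) for Tmem95, both Spaca1 probes, Izumo1, Spaca3 and the brighter Acrbp probe, and to the left for Spesp1.

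Of the members that act in fusion itself, Tmem95 and Izumo1 were higher on all Prss55-/- arrays and neither passed the adjusted threshold. Tmem95 encodes a sperm membrane protein that is required for fusion with the egg. Its log2 signal was 7.80, 7.72 and 7.73 on the Prss55-/- arrays and 7.29, 7.54 and 7.41 on the wt arrays. The genotypes were separated by 0.19, and the spread was larger in wt (SD 0.12, n = 3) than in Prss55-/- (SD 0.043, n = 3). The difference of 0.34, or 1.26-fold, was the largest of the members (95% interval 0.16 to 0.52, limma adjusted p = 0.090). Izumo1 gave 12.21, 12.22 and 12.32 on the Prss55-/- arrays and 12.11, 12.03 and 12.15 on the wt arrays. The lowest Prss55-/- value lay 0.063 above the highest wt value, and the genotypes differed by 0.15 (95% interval 0.013 to 0.29, limma adjusted p = 0.23).

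Izumo4, another gene of the IZUMO family, had 14.31, 14.49 and 14.42 on the Prss55-/- arrays and 14.55, 14.60 and 14.33 on the wt arrays. The genotypes overlapped, and the difference was -0.089 (95% interval -0.31 to 0.13, limma adjusted p = 0.63). The wt array on a slide of its own, wt 3, was 0.25 below the mean of the other wt arrays for this probe, a gap larger than the difference between genotypes. The dimmer Izumo4 probe differed by -0.025, also with overlapping values.

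Among the proteins of the acrosomal membrane and matrix, Spaca1 was higher on all Prss55-/- arrays with both of its probes, and neither passed the adjusted threshold. SPACA1 is a protein of the inner acrosomal membrane that is needed for a normally shaped acrosome. The probe printed above had 14.92, 15.03 and 15.04 on the Prss55-/- arrays and 14.67, 14.79 and 14.77 on the wt arrays. All Prss55-/- arrays lay above all wt arrays, by 0.25 on average or 1.19-fold (95% interval 0.11 to 0.40, limma adjusted p = 0.10). The other Spaca1 probe had 14.93, 15.02 and 14.98 on the Prss55-/- arrays and 14.69, 14.71 and 14.78 on the wt arrays. Its difference was also 0.25 (95% interval 0.12 to 0.37, limma adjusted p = 0.083). The genotype differences from both probes thus lay within 0.01 of each other. On single arrays the gap between the probes ran from -0.023 to 0.080. The probes read the same RNA samples and are not replicates of the condition.

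Spaca3 encodes a lysozyme-like protein of the acrosome. Its values were 15.44, 15.46 and 15.48 on the Prss55-/- arrays and 15.30, 15.34 and 15.36 on the wt arrays, without overlap. The difference was 0.13, or 1.09-fold (95% interval 0.019 to 0.24, limma adjusted p = 0.21). Spaca7, a gene for an acrosomal protein released on exocytosis, was the least even member among the Prss55-/- arrays. Prss55-/- 1 gave 16.35, above every wt array, while Prss55-/- 2 and 3 gave 16.05 and 16.08, below every wt array. The wt arrays stood close together at 16.22, 16.25 and 16.23 (SD 0.013, n = 3, against 0.17 in Prss55-/-). The difference of -0.076 had a 95% interval of -0.29 to 0.14 (limma adjusted p = 0.68). It was -0.17 without Prss55-/- 1 (limma adjusted p = 0.15), and -0.021 and -0.035 without Prss55-/- 2 and Prss55-/- 3.

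Acrbp encodes the protein that binds proacrosin, the precursor of the main acrosomal protease. The brighter probe had 15.54, 15.52 and 15.57 on the Prss55-/- arrays and 15.51, 15.49 and 15.49 on the wt arrays. These did not overlap, but the gap was 0.0079 and the difference 0.050 (95% interval -0.055 to 0.15, limma adjusted p = 0.57). The dimmer Acrbp probe differed in the opposite direction, by -0.048, with overlapping genotypes. Spesp1, a gene for a protein of the equatorial segment of the sperm head, where fusion starts, had 13.66, 13.65 and 13.62 on the Prss55-/- arrays and 13.73, 13.72 and 13.66 on the wt arrays. It was the only member with all Prss55-/- arrays below all wt arrays, with a gap of 0.0029 and a difference of -0.061 (95% interval -0.17 to 0.049, limma adjusted p = 0.50).

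Zpbp and Zpbp2 encode related zona pellucida binding proteins of the acrosome. Zpbp had 13.61, 13.69 and 13.74 on the Prss55-/- arrays and 13.50, 13.64 and 13.58 on the wt arrays. These overlapped, with a difference of 0.10 (95% interval -0.044 to 0.25, limma adjusted p = 0.40). Zpbp2 had 16.78, 16.92 and 16.94 on the Prss55-/- arrays and 16.92, 16.92 and 16.73 on the wt arrays. Its lowest values in either genotype were those of Prss55-/- 1 and wt 3, and the difference was 0.023 (95% interval -0.16 to 0.21, limma adjusted p = 0.89). The dimmer Zpbp2 probe differed by -0.065 with overlapping values, and its sign turned to 0.00094 with 75th percentile scaling.

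**Figure D3:**
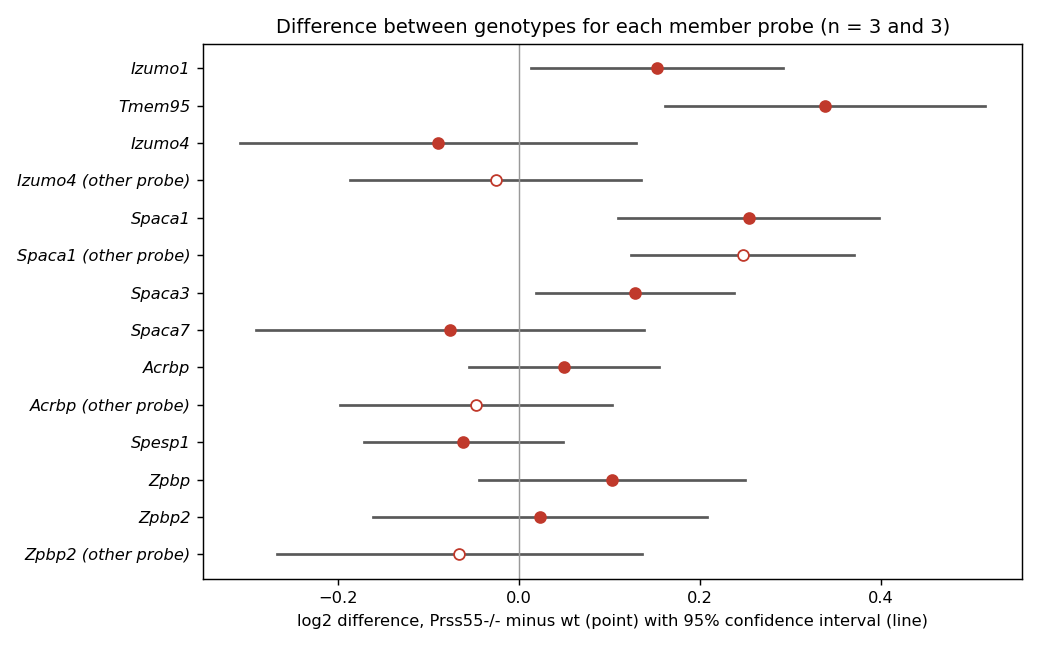
Log2 difference between Prss55-/- and wt testis for each member probe (x axis, log2) with its 95% confidence interval from limma, from 3 arrays per genotype. Filled points are the probes that stand for a gene and open points the dimmer probes. The intervals of Tmem95, both Spaca1 probes, Izumo1 and Spaca3 lie above 0 and all others include it.

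The wt arrays came from 2 slides, of which 1 held wt 3 alone, so that slide and mouse cannot be told apart in the gap between them. Over the members, the value of wt 3 minus the mean of wt 1 and wt 2 ranged from -0.25 for Izumo4 to 0.079 for Izumo1, and its median size was 0.039. For Zpbp2 this gap was -0.19.

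The promoters of the members were compared for the sites of factors that act in spermatids. CREM, a cAMP-responsive factor, activates many genes in round spermatids through the cAMP response element TGACGTCA and its core TGACG, and RFX factors bind GTTGCCA. These 3 motifs were searched on both strands, and every TGACGTCA also counts as a TGACG. RefSeq promoter windows of the GRCm38.p6 build, 250 bases before to 50 bases after the transcription start, were matched for 9 of the 10 genes, and Izumo4 was not matched. The core TGACG was present for 7 of these 9 genes, for 23% of all 27025 genes with a window, and in 20.8% of all 32851 windows. It was found for Izumo1, Spaca1, Spaca3, Spesp1, Zpbp2, Acrbp and Tmem95, and not for Spaca7 and Zpbp. The full element TGACGTCA was present for Izumo1 alone among the members, for 2.03% of all genes and in 1.79% of all windows. GTTGCCA was found for 0 of the 9 genes, for 5.02% of all genes and in 4.38% of all windows. A gene with several windows, such as Spaca1 and Spaca3, counts as holding a motif if any window does. The promoters of Izumo1 and Spaca1 are shown as those with the full element and with a repeated core, marked by capitals. The Izumo1 window is on the plus strand at chr7:45621561-45621860, with the element 96 to 89 bases before the start. The Spaca1 window is on the minus strand at chr4:34050016-34050315, with cores beginning 69 and 59 bases before the start.
Izumo1 promoter: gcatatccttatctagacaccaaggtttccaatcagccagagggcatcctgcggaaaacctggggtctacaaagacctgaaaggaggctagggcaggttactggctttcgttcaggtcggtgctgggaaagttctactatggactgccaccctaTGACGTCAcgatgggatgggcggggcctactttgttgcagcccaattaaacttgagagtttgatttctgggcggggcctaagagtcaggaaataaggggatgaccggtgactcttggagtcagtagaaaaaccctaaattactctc
Spaca1 promoter: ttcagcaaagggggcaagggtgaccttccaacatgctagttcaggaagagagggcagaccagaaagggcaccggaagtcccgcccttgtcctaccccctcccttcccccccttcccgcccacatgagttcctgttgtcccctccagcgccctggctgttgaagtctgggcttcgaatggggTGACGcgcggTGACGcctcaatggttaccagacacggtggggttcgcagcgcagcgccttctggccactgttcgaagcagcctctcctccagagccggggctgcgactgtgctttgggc

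A match of letters is a description of the window and does not show that a factor was bound in these testes. Crem itself, which is also among the round spermatid markers below, was read by 6 tested probes. The brightest of them had 15.05, 15.09 and 15.09 on the Prss55-/- arrays and 14.85, 14.91 and 14.92 on the wt arrays. All Prss55-/- arrays lay above all wt arrays, with a difference of 0.18 (95% interval 0.070 to 0.29, limma adjusted p = 0.12). Over the 6 probes the difference ranged from 0.018 to 0.18. All Prss55-/- arrays lay above all wt arrays for 4 of them, against 13.4% of all tested probes. These probes read the same gene in the same RNA samples and are not replicates of the condition. Whether Crem had a part in the differences of the members was not tested.

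The other genes of the pathway were taken from 4 lists, of which 51 of 53 genes were tested. Of these 51 genes, 0 passed the adjusted threshold in limma and 36 had a positive difference. At an unadjusted p under 0.05, 17 were higher in Prss55-/- testis and 0 lower, against 9.82% and 9.29% of all tested probes. All Prss55-/- arrays lay above all wt arrays for 19 of them and below for 1, against 13.4% and 12.9%. The median difference of the 51 genes was 0.089. The same shares of all tested probes stand behind the counts of each list and of the cell type markers below. The members and the lists were chosen with earlier results of these data known, so that their counts beside these shares are a description only.

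The list of other genes of sperm-egg fusion and the IZUMO family leaves out the members. Its genes were all higher by sign, 10 of 10 tested, with a median of 0.16. Among the members, Izumo1 and Tmem95 differed by 0.15 and 0.34, but Izumo4 by -0.089 and Spesp1 by -0.061. In 6 of them all Prss55-/- arrays lay above all wt arrays, and 5 had an unadjusted p under 0.05. Tmem81, whose protein joins IZUMO1 in a complex on sperm, had 10.41, 10.42 and 10.52 on the Prss55-/- arrays and 10.11, 10.10 and 10.16 on the wt arrays. This difference of 0.32 (95% interval 0.20 to 0.45) missed the threshold with a limma adjusted p of 0.054. Dcst2, a gene for a sperm membrane protein needed for fusion, had the largest difference of this list, 0.36 (95% interval 0.10 to 0.62, limma adjusted p = 0.15). Its values were 7.87, 7.71 and 7.78 on the Prss55-/- arrays and 7.24, 7.40 and 7.63 on the wt arrays, without overlap.

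Genes of the acrosomal contents and of zona interaction had a median of 0.17, with 10 of 15 positive, 9 higher at an unadjusted p under 0.05 and 8 without overlap. Spam1, the gene for the sperm hyaluronidase PH-20, had 12.46, 12.49 and 12.52 on the Prss55-/- arrays and 12.02, 12.23 and 12.25 on the wt arrays. All Prss55-/- arrays lay above all wt arrays, by 0.33 (95% interval 0.15 to 0.51, limma adjusted p = 0.099). Lyzl6, a lysozyme-like gene as is Spaca3, had 14.88, 14.99 and 15.05 on the Prss55-/- arrays and 14.69, 14.64 and 14.68 on the wt arrays. It differed by 0.30 (95% interval 0.16 to 0.44, limma adjusted p = 0.076). The lowest difference in this list was -0.19, for Cd46, with overlapping genotypes.

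Genes of acrosome biogenesis, many of which act at the Golgi, had a median of -0.013, with 7 of 15 positive and 0 at an unadjusted p under 0.05 in limma. The genotypes did not overlap for 1 of them above and 1 below. With all 6 arrays the largest differences were those of Golga3 and Tbc1d20, at 0.13 each, and both had overlapping genotypes. Golga3 differed by 0.027 without wt 2 and by 0.067 without Prss55-/- 1. Tbc1d20 differed by 0.037 and 0.059 without Prss55-/- 1 and wt 1, and by 0.23 without wt 3. GOLGA3 is a Golgi protein and TBC1D20 an activator of GTP hydrolysis by RAB proteins. Genes of acrosomal exocytosis had a median of 0.097, with 9 of 11 positive, 3 higher at an unadjusted p under 0.05 and 4 without overlap. Nsf, the ATPase that takes SNARE complexes apart, differed by 0.15 (95% interval 0.027 to 0.27, limma adjusted p = 0.19) without overlap. Cplx1, a gene for the SNARE regulator complexin, differed by 0.16 with overlapping genotypes. This value was 0.016 with normexp background correction, 0.090 without wt 2 and 0.27 without wt 3. Syt8 was not well above background on all arrays of either genotype and was not tested.

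Of these lists, the genes whose values over the 6 arrays lay nearest to the median pattern of the members were Llcfc1, Unc13b and Tmf1. Likeness was measured as the root mean square distance between values centred on their mean over the 6 arrays, and it was 0.031 for Llcfc1 and 0.035 for both others. LLCFC1 is a sperm protein needed for fusion, UNC13B primes vesicles for exocytosis and TMF1 is a Golgi protein. The differences between genotypes were 0.093 for Llcfc1, 0.13 for Unc13b and 0.081 for Tmf1, in each case without overlap and not past the adjusted threshold. The median pattern of the members itself had all Prss55-/- arrays above all wt arrays. Genes picked for likeness to it were therefore likely to share this order, which is no separate result. Among the members, the distance to their own median pattern ran from 0.027 for Acrbp to 0.15 for Tmem95.

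**Figure D4:**
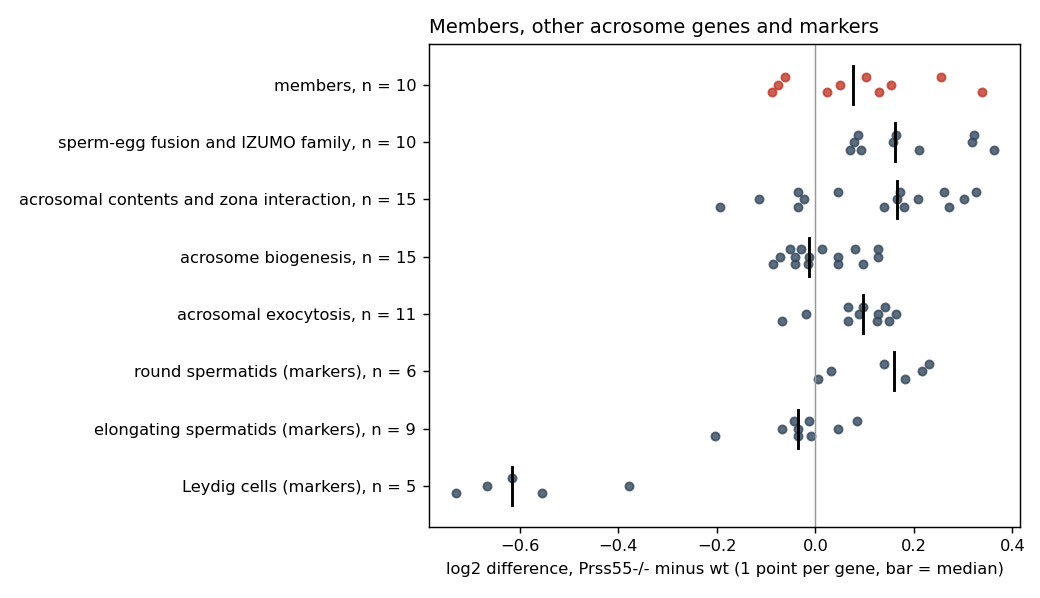
Log2 difference between Prss55-/- and wt testis (x axis, log2) with 1 point per gene for the members, for the 4 lists of other acrosome genes and for markers of 3 cell types, with the median as a bar. The medians lie at 0.077 for the members, 0.16 and 0.17 for fusion and contents genes, -0.013 for biogenesis genes, 0.16 for round spermatid markers and -0.62 for Leydig cell markers.

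Markers of the cell types in the testis are given here beside the members, and 0 of the 47 tested markers passed the adjusted threshold in limma. Of the 6 round spermatid markers, 6 were higher by sign, 4 were higher at an unadjusted p under 0.05 and 0 passed the adjusted threshold in limma. Their summed normalised signal was 184659 to 194482 on the Prss55-/- arrays and 167360 to 181402 on the wt arrays, without overlap. Acrv1, the gene for an acrosomal protein, is both in this list and in that of acrosomal contents. Of the 9 elongating spermatid markers 2 were higher by sign, and the median was -0.035. Tnp2, a transition protein gene, was the only marker of this list without overlap, with a difference of -0.20 (95% interval -0.33 to -0.075, limma adjusted p = 0.12).

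All 5 tested Leydig cell markers were lower by sign, with a median of -0.62 and 0 past the adjusted threshold in limma, and 2 at an unadjusted p under 0.05. Hsd3b1, a steroidogenic enzyme gene, was the only marker of these 5 without overlap, with a difference of -0.67 (95% interval -0.97 to -0.36, limma adjusted p = 0.072). The summed signal of the Leydig cell markers was 31764 to 51335 on the Prss55-/- arrays and 51024 to 58508 on the wt arrays. The highest Prss55-/- sum was that of Prss55-/- 1. All 4 peritubular cell markers and all 5 macrophage markers were also lower by sign, with medians of -0.092 and -0.12. Of 5 epididymis markers 4 were not well above background on all arrays of either genotype, and Lcn9 was. The part of these shifts in the differences of the members was not tested.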

How the data were processed

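RNA from the testes of 3 Prss55-/- mice and of 3 wt mice was labelled with Cy3 and read on Agilent 4 x 44k whole mouse genome arrays. Per the labels and the file headers, the authors extracted spot intensity with Feature Extraction 10.7, and the deposited processed signal was already corrected for background. The authors also deposited a matrix of log2 normalised values, which differed from the values used here by at most 0.084 over tested probes. From the processed intensity, signals below 1 were set to 1, outlier spots were set aside (2 tested values were then missing), and log2 values were quantile normalised over the 6 arrays as the study's methods name it. Spots of a probe were averaged. A probe was tested when every spot of it passed Agilent's well-above-background call throughout 1 genotype or both (28606 probes, 19181 genes). The genotype effect was fitted with lmFit and eBayes of limma (version 3.58.1, R 4.3.3; two-sided, Benjamini-Hochberg over all tested probes, threshold 0.05). Intervals are 95% intervals from this fit. Precision is limited by having 3 arrays per genotype. The labels do not give the litter of a mouse. The p-values set the difference against the spread between mice of the same genotype. That difference also holds any difference between slides, since no slide held both genotypes. The methods' t-test, equal in spread and two-sided, was run on the same values. Its calls here used the same adjustment and no limit on fold change. The study itself called genes at p under 0.05 in its t-test with a fold change of at least 2, and its methods name no adjustment.

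The members and the gene lists were chosen with earlier results of these data known. Besides the members, the genes named were Prss55, the 2 genes per list with the largest absolute difference among those well above background on all 6 arrays, and the 3 nearest to the members by pattern. Crem, Cd46, Syt8, Acrv1, Tnp2, Hsd3b1 and Lcn9 were named after their values were seen. List genes were matched by symbol or by a RefSeq synonym (GRCm38.p6), and 1 list gene, Fimp, was not matched. The markers Zbtb16, Sohlh1 and Insl3 were not matched either. The remaining marker lists (spermatogonia, spermatocytes, Sertoli cells, peritubular cells and macrophages) had medians of 0.088, 0.031, 0.013, -0.092 and -0.12, with 0 of their genes past the adjusted threshold in limma. At an unadjusted p under 0.05 these lists held 1, 1, 2, 1 and 2 genes. The normalisation, background correction, filter, values, test, slide block, replicate block, probe choice and the leaving out of each array were varied. The scripts were tested on simulated data.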

Additional observations from a re-analysis of the deposited data

How the results depend on the processing

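The count of members past the adjusted threshold was 0 under every alternative tried, and their median difference, where an alternative changes it, stayed between 0.052 and 0.10. The count of other acrosome genes called was 0 with all 6 arrays and became 1 with 75th percentile scaling (Tmem81, 0.33, limma adjusted p = 0.048). It was also 1 without Prss55-/- replicate 1 (Lyzl6, 0.35, limma adjusted p = 0.040), and left-out arrays gave 0 to 1. The number of probes called on the whole array was less stable than these. It was 346, and 140 without the filter on dim probes and 87 with the methods' t-test after the same adjustment. With 1 array left out, it ran from 38 without Prss55-/- replicate 3 to 855 without Prss55-/- replicate 1. Without Prss55-/- 2, wt 1 and wt 2 it was 63, 69 and 127. The 346 calls held 160 higher and 186 lower, and 75th percentile scaling gave 210 and 147. The call of Prss55 was lost with the methods' t-test (adjusted p = 0.071) and without Prss55-/- 2, Prss55-/- 3 or wt 1 (limma adjusted p = 0.060, 0.070 and 0.063). The sign turned for the dimmer Zpbp2 probe with 75th percentile scaling (0.00094) and normexp background (0.012), for Zpbp2 without Prss55-/- 3 (-0.0061) or wt 3 (-0.039), and for the dimmer Izumo4 probe without wt 2 (0.015, against -0.087 without wt 3). The causes were not tested.

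The labels do not say whether same-numbered arrays belong together, while the study describes the mice as 3 pairs. The deviations of same-numbered arrays from their genotype mean correlated at -0.054, -0.023 and -0.11. With 3 arrays per genotype, these values cannot decide whether the arrays were paired. With the replicate number as a block, 13 probes were called, Prss55 had an adjusted p of 0.10, and 0 members were called.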
